A study of Mus musculus with 13 samples.

Results

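The hormone and nuclear receptors of the mouse testis were followed here through 8 genes, picked by symbol from the 25965 genes of the table: the receptors Fshr, Prlr, Esr1, Nr3c1, Nr5a1 and Nr0b1, and the hormone-induced genes Fkbp5 and Tsc22d3. All 8 had reads in every one of the 13 libraries. Of these libraries, 6 were labelled as Wfdc15a knockout (KO), 4 as heterozygous (Het) and 3 as wild type (WT), all of whole testis without its outer capsule from adult mice of 15 weeks. The design text pools the Het and WT mice as the control (n = 7) to study the role of Wfdc15a in sperm formation. Each title also has a number, called the title number, which is 1 for KO replicates 1 to 3 and Het replicate 1, and 2 for KO replicates 4 to 6, Het replicates 2 to 4 and all WT libraries. Neither the sense of that number, nor the design of the knockout allele, nor the strain is given in the sources used here.

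The testis receives pituitary hormones through receptors on the cell surface and steroids through nuclear receptors, which are transcription factors switched by their ligand. Follicle-stimulating hormone (FSH) acts on Sertoli cells, the somatic cells that nurse germ cells inside the seminiferous tubule, through Fshr and cyclic AMP. Prolactin acts in rodents on Leydig cells, the steroid-making cells between the tubules, through Prlr and the kinase Jak2. Nr5a1 (steroidogenic factor 1) is an orphan nuclear receptor that drives steroid-making genes, and Nr0b1 (Dax1), which lacks the usual DNA-binding domain, represses it. Esr1 binds estrogens and Nr3c1 binds glucocorticoids, while Fkbp5, a co-chaperone of Hsp90, and Tsc22d3, the glucocorticoid-induced leucine zipper protein, are widely used as readouts of steroid signalling.

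The libraries held 4.22 to 8.23 M gene reads when labelled KO and 5.64 to 10.1 M in the controls. Levels are given in RPM, reads scaled to one library size, in which 1 read was worth 0.0899 to 0.222 RPM. Wfdc15a itself was not lost from the libraries labelled KO. It stood at 19.4 to 33.4 RPM in the number 1 libraries labelled KO and at 48.1 to 81.3 RPM in the number 2 libraries labelled KO, against 53.5 to 85.8 RPM in the controls. Directions below are therefore those of the libraries labelled KO. Transcripts of Sertoli, Leydig, peritubular and germ cells were all present, and the 10 epididymis markers summed to 4.02 to 9.65 RPM in the libraries labelled KO and 4.43 to 7.85 RPM in the controls, with 2 of the 10, Lcn5 and Lcn8, at 0 in every library.

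Promoter sequence is shown for 3 of the genes in which a known motif was found: Fshr, Nr0b1 and Fkbp5. Fshr did not pass the threshold used below for a difference between the KO label and the controls. The part of these motifs in any difference was not tested. RefSeq windows of GRCm38.p6, each of 300 bases around an annotated start site, were at hand for 6 of the 8 genes (11 windows). Nr5a1 and Nr3c1 had none and were not searched. The 200 bases before the start are printed 5′ to 3′ on the gene's own strand, with motif letters in capitals. Fshr (chr17:89200676-89200875, minus strand) and Fkbp5 (chr17:28486150-28486349, minus strand) each carry the E-box CACGTG, the motif bound by upstream stimulatory factors. Nr0b1 (chrX:86191575-86191774, plus strand) carries the nuclear receptor core motif AGGTCA and the TATA box letters TATAAA.
Fshr: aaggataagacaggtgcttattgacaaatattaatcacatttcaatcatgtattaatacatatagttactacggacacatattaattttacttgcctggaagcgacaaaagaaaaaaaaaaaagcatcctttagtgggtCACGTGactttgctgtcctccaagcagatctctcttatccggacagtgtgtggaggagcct
Nr0b1: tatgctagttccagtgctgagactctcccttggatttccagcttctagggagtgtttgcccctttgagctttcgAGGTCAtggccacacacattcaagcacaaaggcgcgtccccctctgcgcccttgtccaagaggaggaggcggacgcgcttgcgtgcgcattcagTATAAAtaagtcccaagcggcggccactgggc
Fkbp5: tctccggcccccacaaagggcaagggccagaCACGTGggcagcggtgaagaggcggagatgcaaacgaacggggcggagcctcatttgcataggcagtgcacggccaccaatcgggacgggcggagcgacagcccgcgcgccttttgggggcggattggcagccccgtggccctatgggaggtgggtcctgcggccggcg
Counted back from the start site, the E-box begins at base -61 in Fshr and at base -169 in Fkbp5. The core motif of Nr0b1 begins at -126 and its TATA letters at -32. Both strands were searched, and none of these matches overlapped another motif in the 11 windows. Among all 32851 mouse windows, CACGTG occurs in 7.15%, AGGTCA in 16.3% and TATAAA in 13.6%. The steroid receptor core motif TGTTCT, present in 19% of all windows, was found in a Prlr window at -12 and in a Tsc22d3 window at -185. The letters GNACA and TGTNC set 3 bases apart, which make up a glucocorticoid and androgen response element, occur in 0.475% of all windows. AAGGTCA of the extended Nr5a1 site occurs in 4.72%. Neither was in any of the 11 windows searched, which says only that these letters are not there.

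Across the 8 genes, 6 rose in the libraries labelled KO relative to the controls and none fell, by limma on log2(RPM + 1) with Benjamini-Hochberg adjustment over 16235 genes and an adjusted p under 0.05 as the call. The 6 were Nr5a1, Fkbp5, Prlr, Esr1, Nr0b1 and Tsc22d3. Of all genes tested, 18.4% were called higher and 6.18% lower in the same comparison (24.6% in either direction). The median log2 difference was 0.83 over the 8 genes and 0.16 over all genes tested. This split depended on the scaling. Of the genes called, 74.9% were higher with RPM, 49.9% with median-of-ratios scaling and 48.8% with quantile normalization, where the median of all genes was 0.02 and -0.01. Median-of-ratios scaling called 6 of the 8 genes, all higher, beside 10.5% of all genes tested, and quantile normalization called 4, all higher, beside 8.99% of all genes tested.

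Nr5a1 (mm10 chromosome 2 from 38692656 to 38714542, minus strand) had the greatest difference among the 8 genes. The number 1 libraries labelled KO held 92.2, 110 and 85.7 RPM and the number 2 libraries labelled KO 93.9, 76.8 and 70.2 RPM, against 29.0, 38.6, 41.7 and 37.2 RPM in Het libraries and 35.5, 56.1 and 37.8 RPM in WT libraries. Every library labelled KO lay above every control library. The means were 88.2 ± 14.1 RPM with the KO label (SD, n = 6) and 39.4 ± 8.30 RPM in the controls (SD, n = 7). This was a log2 difference of 1.15 ± 0.13 (SE; limma adjusted p = 6.91e-06), and the two-sided exact permutation p over libraries was 0.00117, the smallest that 6 libraries against 7 can give. Non-overlapping groups with the KO libraries higher were found for 5.06% of all genes tested, and among the 8 genes for Nr5a1, Prlr and Fkbp5. In the table Nr5a1 overlaps 4933433P16Rik on the other strand, and since the counting strand is not given, reads of the pair cannot be told apart.

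Nr0b1, the X-linked partner of Nr5a1 (chromosome X from 86191764 to 86195947, plus strand), rose as well but with overlap. It had 43.6, 47.0 and 42.0 RPM in the number 1 libraries labelled KO and 38.8, 19.7 and 30.2 RPM in the number 2 libraries labelled KO, against 14.3 to 24.5 RPM in the controls (median 22 RPM). KO replicate 5, at 19.7 RPM, was the library labelled KO that fell inside the control range, and the other 5 were above it. On the log2 scale the difference was 0.78 ± 0.18 (SE; limma adjusted p = 0.00381). It was not called with only the number 2 libraries of both groups (log2 difference 0.42, adjusted p = 0.229) or with WT alone as the control (0.63, adjusted p = 0.0912).

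Prlr, the prolactin receptor (chromosome 15 from 10177238 to 10349180, plus strand), had the highest read counts of the 8 genes, 298 to 1291 reads per library. The number 1 libraries labelled KO held 120, 160 and 118 RPM and the number 2 libraries labelled KO 114, 84.4 and 97.6 RPM, against 40.9, 72.1, 52.6 and 50.2 RPM in Het libraries and 55.6, 60.2 and 82.6 RPM in WT libraries. The groups did not overlap, though KO replicate 5 (84.4 RPM) and WT replicate 3 (82.6 RPM) nearly met. The means were 116 ± 25.8 RPM with the KO label (SD, n = 6) and 59.2 ± 14.1 RPM in the controls (SD, n = 7), a log2 difference of 0.96 ± 0.15 (SE; limma adjusted p = 0.000126). A non-coding entry of the table, RP23-74N15.4, overlaps Prlr on the same strand.

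Fshr, the FSH receptor (chromosome 17 from 88985170 to 89200612, minus strand), was the lowest of the receptors in RPM and was not called. The lowest, median and highest values were 4.86, 6.99 and 15.2 RPM in the libraries labelled KO, against 3.85, 5.30 and 6.47 RPM in the controls. The value of 15.2 RPM came from KO replicate 3, and the other 5 libraries labelled KO lay between 4.86 and 7.71 RPM, 2 of them inside the control range and 3 above it. The log2 difference was 0.48 (95% interval 0.01 to 0.95; limma adjusted p = 0.127), and without KO replicate 3 it was 0.30 (adjusted p = 0.336). Fshr had the fewest reads of the 8 genes, 28 to 93 per library.

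Esr1, estrogen receptor alpha (chromosome 10 from 4611593 to 5005614, plus strand), rose. It held 22.3, 22.4 and 38.9 RPM in the number 1 libraries labelled KO and 16.0, 19.0 and 26.3 RPM in the number 2 libraries labelled KO, against 6.31, 11.6, 13.5 and 12 RPM in Het libraries and 10.6, 14.9 and 20.7 RPM in WT libraries. The 2 lowest libraries labelled KO lay below WT replicate 3. On the log2 scale Esr1 differed by 0.88 ± 0.22 (SE; limma adjusted p = 0.0068), and it was not called with quantile normalization (0.60, adjusted p = 0.0521), with the number 2 libraries alone (0.53, adjusted p = 0.164) or against WT alone (0.61, adjusted p = 0.168).

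Nr3c1, the glucocorticoid receptor (chromosome 18 from 39410545 to 39491301, minus strand), stood at 10.8 to 14.6 RPM in the libraries labelled KO (median 12.6 RPM), against 5.06 to 12.2 RPM in the controls (median 8.27 RPM). All 6 libraries labelled KO were above the control mean and 3 were above the highest control. The log2 difference was 0.51 (95% interval 0.12 to 0.91; limma adjusted p = 0.0530), just short of the threshold. It passed with the low-value filter at 5 RPM (adjusted p = 0.0442) and without WT replicate 3 (0.60, adjusted p = 0.0269), the control with the highest value.

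The 2 hormone-induced genes rose. Fkbp5 (chromosome 17 from 28399095 to 28517524, minus strand) had 49.6, 54.4 and 31.7 RPM in the number 1 libraries labelled KO and 45.9, 33.1 and 31.2 RPM in the number 2 libraries labelled KO, against 11.7, 13.8, 14.6 and 13.3 RPM in Het libraries and 25.1, 27.8 and 27.4 RPM in WT libraries. The 3 genotypes thus formed 3 separate ranges, with KO at the top, WT between and Het at the bottom. Against the pooled control the log2 difference was 1.11 ± 0.21 (SE; limma adjusted p = 0.000712). Against Het alone it was 1.52 (adjusted p = 9.36e-06), and against WT alone it was 0.56 and not called (adjusted p = 0.0676). The pooled figure for Fkbp5 therefore averages 2 control levels that do not overlap.

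Tsc22d3 (chromosome X from 140539528 to 140600659, minus strand) had 29.1, 26.5 and 25.0 RPM in the number 1 libraries labelled KO and 32.8, 19.3 and 17.3 RPM in the number 2 libraries labelled KO, against 10.9 to 19.2 RPM in the controls (median 15.3 RPM). One library labelled KO, replicate 6, fell inside the control range. The log2 difference was 0.71 ± 0.17 (SE; limma adjusted p = 0.00486). It was not called with quantile normalization (0.45, adjusted p = 0.0691), with the number 2 libraries alone (0.55, adjusted p = 0.145) or against WT alone (0.63, adjusted p = 0.0767).

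**Figure D1:**
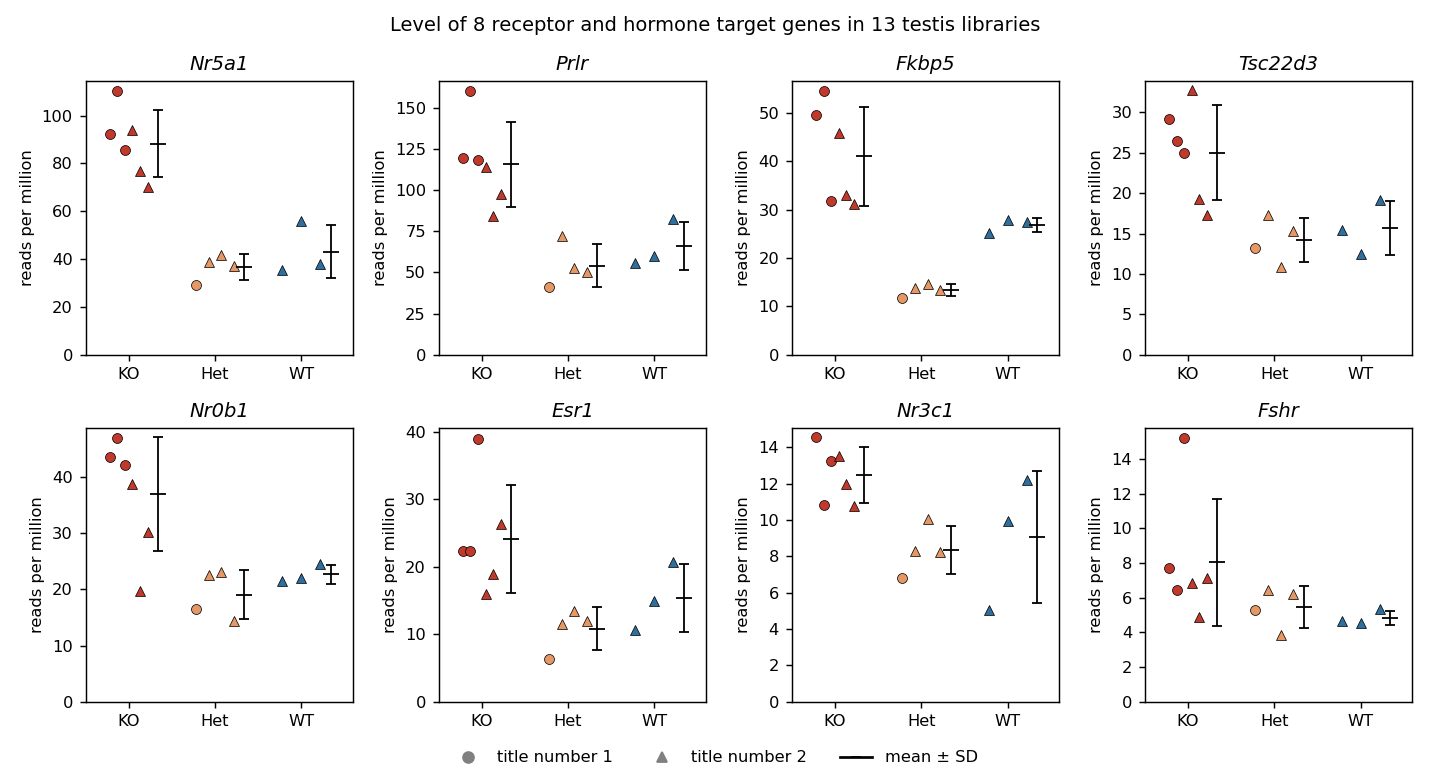
Level of each of the 8 genes in RPM (linear axis from 0) in the 6 KO, 4 Het and 3 WT libraries, 1 point per library, with circles for title number 1, triangles for title number 2 and a bar for the mean ± SD of each genotype. The KO points lie above all others for Nr5a1, Prlr and Fkbp5, Fkbp5 forms 3 separate levels, and 1 KO library stands alone at 15.2 RPM for Fshr.

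Levels of different genes were compared per kilobase of annotated exon. In the libraries labelled KO the order was Nr5a1 (20.8 ± 3.33 RPM per kb, SD), Nr0b1 (20.4 ± 5.62), Prlr (7.54 ± 1.68), Tsc22d3 (5.76 ± 1.35), Fkbp5 (4.33 ± 1.08), Fshr (3.41 ± 1.54), Esr1 (1.77 ± 0.59) and Nr3c1 (1.63 ± 0.20). In the controls it was Nr0b1 (11.4 ± 2.07 RPM per kb), Nr5a1 (9.29 ± 1.96), Prlr (3.86 ± 0.92), Tsc22d3 (3.41 ± 0.66), Fshr (2.20 ± 0.40), Fkbp5 (2.02 ± 0.77), Nr3c1 (1.13 ± 0.30) and Esr1 (0.94 ± 0.32). With the KO label the only neighbours whose mean ± SD ranges stayed apart were Nr0b1 and Prlr. In the pooled controls Nr5a1 and Prlr stayed apart, as did Tsc22d3 and Fshr, and the ranges of the other neighbours overlapped. For Fshr and Fkbp5 the overlap came with the pooling. Het libraries had Fkbp5 at 1.41 ± 0.13 RPM per kb, below Fshr at 2.32 ± 0.50, and WT libraries had Fkbp5 at 2.83 ± 0.15, above Fshr at 2.05 ± 0.18. The exon length joins the exons of all annotated transcripts, so genes with many transcripts are set low on this scale. Fkbp5 has 15, Prlr 12 and Esr1 10, while Fshr has 1.

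The 2 title numbers gave different counts of calls among the 8 genes. In the number 1 libraries labelled KO, 6 were called higher than the controls (17% of all genes tested), and in the number 2 libraries labelled KO 3 were called higher, Nr5a1, Prlr and Fkbp5 (7.8% of all genes tested). Both comparisons share the 7 controls, of which all but Het replicate 1 carry number 2. The number 1 comparison therefore differs in the title number as well as the KO label, and the parts of each can be told apart only in part. Nr5a1 differed from the controls by 1.28 (log2) in number 1 and 1.02 in number 2, Prlr by 1.17 and 0.75, Fkbp5 by 1.25 and 0.97, Nr0b1 by 1.09 and 0.47, and Fshr by 0.73 and 0.23. All 8 genes had the larger difference in number 1. When number 1 was set directly against number 2 among the libraries labelled KO, none of the 8 was called (0.179% of all genes tested, 29 genes). At an unadjusted p under 0.05 there was 1 of the 8, Nr0b1, a share like that of all genes (1999 of 16235), with a log2 difference of 0.61 (95% interval 0.12 to 1.10; limma adjusted p = 0.296). The intervals for the other 7 genes ran from as low as -0.51 to as high as 1.16 and all held 0, so differences of either sign fit within them. The call for Fkbp5 in number 2 was the least steady, and was lost without KO replicate 4 (log2 difference 0.80, adjusted p = 0.106), without KO replicate 5 (1.03, adjusted p = 0.0516), with no filter on low values (adjusted p = 0.0502), with quantile normalization (0.0635) and with limma-voom (0.0539). In number 1, Esr1 was lost without KO replicate 3 (0.82, adjusted p = 0.0748), Tsc22d3 was lost with quantile normalization (0.55, adjusted p = 0.0737), and Fshr was gained without KO replicate 2 (0.95, adjusted p = 0.0385). In number 2, leaving out WT replicate 3 gained Esr1 (0.79, adjusted p = 0.0433) and Tsc22d3 (0.64, adjusted p = 0.0490), and leaving out KO replicate 5 gained Nr0b1 (0.73, adjusted p = 0.0401).

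**Figure D2:**
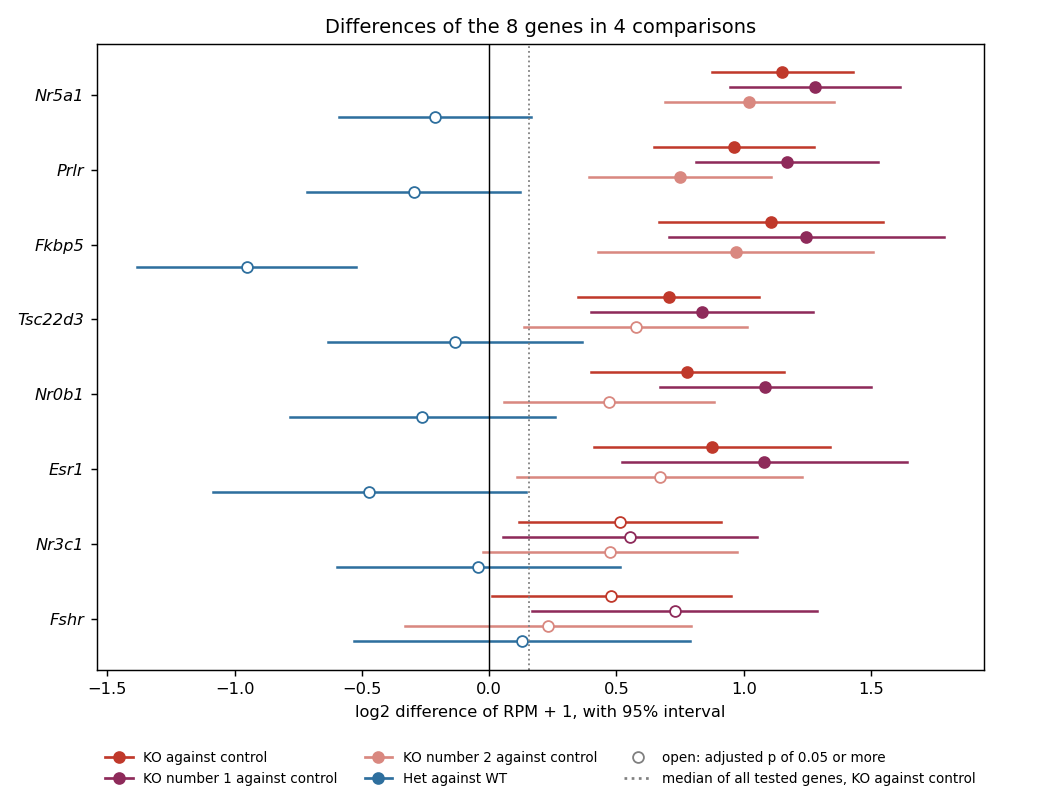
Log2 difference of RPM + 1 for each of the 8 genes in 4 comparisons, with 95% intervals, filled where the adjusted p is under 0.05, a solid line at 0 and a dotted line at the median of all genes tested in KO against control (0.16). All KO differences lie to the right of 0, those of number 1 farther than those of number 2, and the Het against WT difference of Fkbp5 lies at -0.95.

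Markers of the somatic cells moved with these genes. In the libraries labelled KO, 15 of 21 Sertoli cell markers were called higher, with a summed level of 2836 to 4210 RPM, against 1516 to 2553 RPM in the controls. Of 17 Leydig cell markers, 10 were called higher, with a summed level of 7391 to 11966 RPM in the libraries labelled KO, against 2954 to 5571 RPM in the controls. Macrophage markers were called higher in 9 of 11, with sums of 154 to 351 RPM with the KO label and 91.6 to 137 RPM in the controls. All 12 elongating spermatid markers fell, to a sum of 9799 to 14094 RPM in the libraries labelled KO, against 20418 to 25490 RPM in the controls. Peritubular myoid markers had 4 called higher and 1 called lower of 11 tested, with 9 of the 11 above 0 (median log2 difference 0.49). Their sums overlapped, at 391 to 526.3 RPM with the KO label and 412 to 507 RPM in the controls. Actg2 made up much of these sums and was lower with the KO label, at 169 ± 18.8 RPM (SD), against 265 ± 17.3 RPM in the controls. Over all genes tested 18.4% were called higher and 6.18% lower. The counts differed with the scaling and with the control group, which held 3 libraries when WT stood alone. Against WT alone 7 of 21 Sertoli, 7 of 17 Leydig and 5 of 11 macrophage markers were called higher, beside 6.05% of all genes tested. None of the peritubular ones was called higher and 1 was called lower. With quantile normalization 10 Sertoli, 11 Leydig, 6 macrophage and 2 peritubular markers were called higher, beside 8.99% of all genes tested, and 1 peritubular marker lower. All 12 elongating spermatid markers were called lower either way. None of these 5 lists had a marker at 0 in all libraries. In RNA of a whole organ, more cells of a type and more RNA per cell cannot be told apart.

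Each of the 8 genes was therefore also measured relative to Sertoli, Leydig and peritubular markers, as its log2(RPM + 1) less the mean of a marker list in the same library. The same 3 lists were used for every gene, whether or not those cells carry it. None of the 24 differences (8 genes, 3 lists) between the KO label and the controls passed the threshold by the two-sided exact permutation test with adjustment over the 24. Nr5a1 came nearest. Relative to Sertoli markers it was higher by 0.43 in the libraries labelled KO (1.38 ± 0.21, SD, n = 6, against 0.95 ± 0.23 in the controls, n = 7; exact p = 0.00583, adjusted p = 0.0699). Relative to peritubular markers it was higher by 0.74 (exact p = 0.00466, adjusted p = 0.0699), and relative to Leydig markers by 0.31 (exact p = 0.122, adjusted p = 0.338). Prlr was higher by 0.55 relative to peritubular markers (exact p = 0.00932, adjusted p = 0.0746), by 0.24 relative to Sertoli markers (exact p = 0.105) and by 0.12 relative to Leydig markers (exact p = 0.530). Fkbp5 was higher by 0.70 relative to peritubular markers (exact p = 0.0128, adjusted p = 0.0769), by 0.38 relative to Sertoli markers (exact p = 0.0909) and by 0.26 relative to Leydig markers (exact p = 0.293). Fshr, whose RNA is confined to Sertoli cells in the testis, differed by -0.24 relative to Sertoli markers (exact p = 0.251), at -1.99 ± 0.42 in the libraries labelled KO and -1.74 ± 0.31 in the controls. One list mean per library is subtracted from all 8 genes, so the differences of a list shift together. The part of the markers in the plain differences was not tested otherwise.

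**Figure D3:**
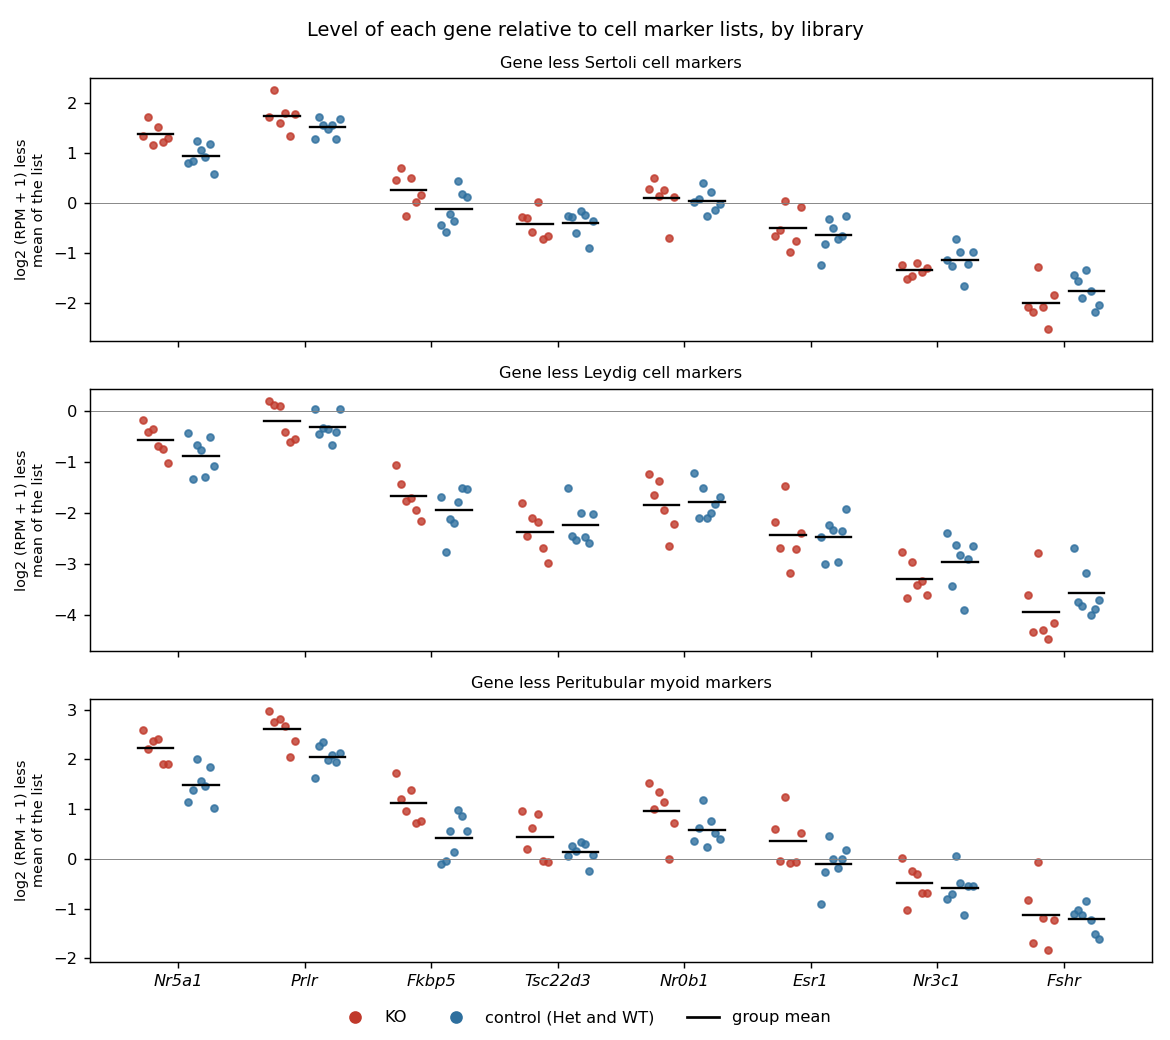
Log2(RPM + 1) of each of the 8 genes less the mean of the Sertoli, Leydig or peritubular marker list in the same library, 1 point per library, with black bars for the group means of the 6 KO and 7 control libraries. The groups overlap in every panel, with the widest gap for Nr5a1 relative to peritubular markers (0.74).

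Het and WT mice, pooled as the control, were set against each other in the same way. No gene of the table was called by limma (0% of 16235 tested), with 957 at an unadjusted p under 0.05, and limma-voom gave 0 called and 874 unadjusted. Among the 8 genes, 7 had lower means in Het than in WT, and Fkbp5 stood out in size. Its Het libraries held 11.7 to 14.6 RPM and its WT libraries 25.1 to 27.8 RPM, without overlap, and 4.64% of all genes tested were non-overlapping in this direction. The log2 difference was -0.95 (95% interval -1.38 to -0.52), which ranked 8 of 16235 by p-value but was not called (limma adjusted p = 0.327). The exact permutation p was 0.0571, the smallest that 4 libraries against 3 can give. Fkbp5 had 79 to 154 reads in Het libraries and 196 to 248 reads in WT libraries. The other 7 genes had log2 differences from -0.47 (Esr1) to 0.13 (Fshr), with intervals that held 0.

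Other genes induced by glucocorticoids did not show a gap of that size between Het and WT. Of 15 tested, 13 had a log2 difference below 0, with a median of -0.14. Sdc4, a cell surface proteoglycan, was the only one at an unadjusted p under 0.05 (log2 difference -0.51, limma adjusted p = 0.680). Tsc22d3 differed by -0.13. Somatic markers were also mostly lower in Het than in WT, and none was called. Of Sertoli markers, 19 of 21 were below 0 (median -0.31), with 2 at an unadjusted p under 0.05. Of Leydig markers, 15 of 17 were below 0 (median -0.50), with 7 at an unadjusted p under 0.05. Sertoli genes that respond to FSH had 9 of 11 below 0 and 2 above (median -0.48). Of these 11 genes, 5 had an unadjusted p under 0.05, and the lowest, Plat, differed by -1.06, a larger gap than that of Fkbp5. Summed Sertoli markers stood at 1516 to 1767 RPM in Het libraries and 1633 to 2553 RPM in WT libraries, and Leydig markers at 2954 to 4571 RPM in Het libraries and 4466 to 5571 RPM in WT libraries. Their part in the Fkbp5 difference was not tested.

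**Figure D4:**
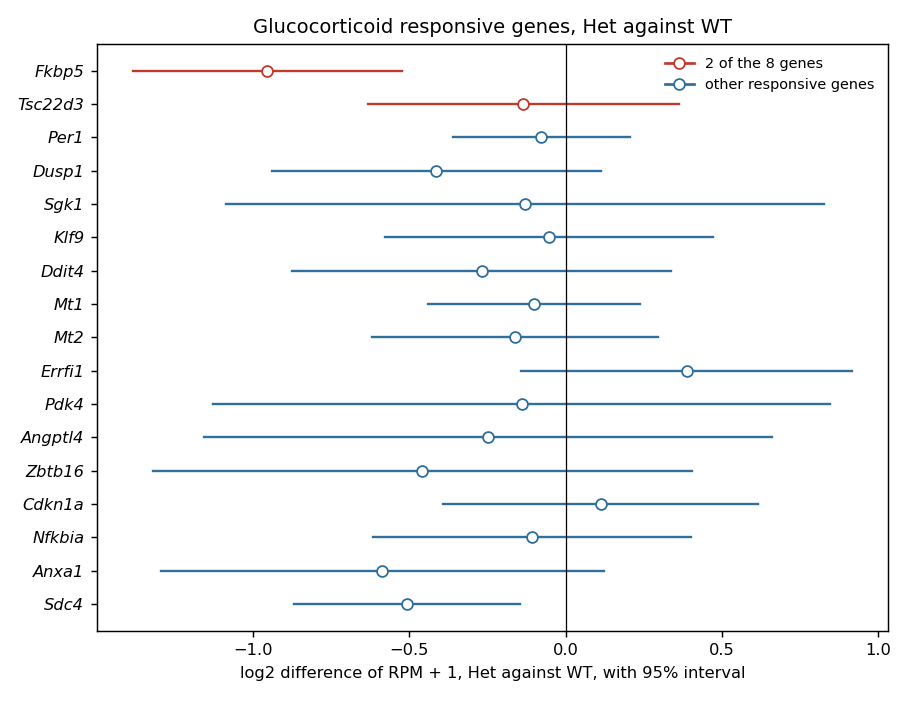
Log2 difference of RPM + 1 between 4 Het and 3 WT libraries, with 95% intervals, for Fkbp5, Tsc22d3 and the 15 other glucocorticoid responsive genes tested. The interval of Fkbp5 (-1.38 to -0.52) lies farthest to the left, and all but those of Fkbp5 and Sdc4 hold 0.

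The count of the 8 genes called differed with the control group, and so did the number of control libraries (7 pooled, 4 Het, 3 WT). For Tsc22d3 the SE was 0.17 against the pooled control, 0.20 against Het and 0.22 against WT. For Nr0b1 it was 0.18, 0.21 and 0.23, while for Fkbp5 it was 0.21, 0.17 and 0.19. The part of the smaller control groups in the lost calls was not tested. Against Het alone 6 were called higher in the libraries labelled KO (16.9% of all genes tested), and against WT alone 2 were, Nr5a1 and Prlr (6.05% of all genes tested). The median log2 difference of the 8 genes was 0.98 against Het and 0.62 against WT, where the median of all genes was 0.16 and 0.14. Both comparisons share the libraries labelled KO. Nr5a1 differed by 1.24 from Het and 1.03 from WT, and Prlr by 1.09 from Het and 0.79 from WT.

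The genes around each receptor were then read from lists of pathway members. Their counts stand beside 18.4% called higher, 6.18% called lower and a median log2 difference of 0.16 over all genes tested. Against WT alone 6.05% of all genes tested were called higher (median 0.14). With median-of-ratios scaling 10.5% were called higher and 10.6% lower, and with quantile normalization 8.99% higher and 9.44% lower. For FSH, the signalling list (15 tested) had 5 genes called higher and 1 lower, and 2 higher and 1 lower against WT alone. Gnas, the G protein subunit that activates adenylyl cyclase, rose by 0.63 (log2), to 189 ± 31.3 RPM in the libraries labelled KO, against 121 ± 14.8 RPM in the controls. Arrb1, an arrestin that desensitises receptors, rose by 0.90, to 14.6 ± 2.49 RPM with the KO label, against 7.87 ± 4.02 RPM in the controls. Prkar2a, a regulatory subunit of protein kinase A found also in germ cells, fell by 1.01, to 73.0 ± 25.8 RPM in the libraries labelled KO, against 143 ± 26.7 RPM in the controls. Prkar1a rose by 0.24 but was not called with median-of-ratios scaling (0.09, adjusted p = 0.412), under which the list had 3 higher and 2 lower. Arrb1 was not called with quantile normalization (adjusted p = 0.0781). In the table Gnas overlaps Nespas and Gm20721.

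Sertoli genes that respond to FSH had 7 of 11 called higher and none lower, with a median log2 difference of 0.76 beside 0.16 over all genes. Inha, which encodes the inhibin subunit that feeds back on FSH release, rose by 0.87, to 227 ± 71.9 RPM in the libraries labelled KO, against 122 ± 25.5 RPM in the controls. Plat, a plasminogen activator, rose by 1.28, to 44.4 ± 14 RPM with the KO label, against 18.7 ± 8.99 RPM in the controls. Slc2a1, a glucose transporter, rose by 0.95 and Tubb3, a tubulin, by 0.88, and both overlap predicted genes in the table. Of the 14 genes on this list, 3 are also Sertoli markers. Against WT alone none of the 11 was called, with a median of 0.57.

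In the prolactin list, 5 of 15 genes tested were called higher and none lower (median 0.69). With median-of-ratios scaling 4 were higher and 1 lower, and against WT alone 2 were higher, with a median of 0.31. Stat3, a transcription factor that cytokine receptors activate, rose by 1.16, to 79.0 ± 16.1 RPM in the libraries labelled KO, against 35.9 ± 13.2 RPM in the controls. It overlaps Stat5a in the table. Socs3, a feedback inhibitor of Jak kinases, rose by 0.95 at a low level, 2.31 ± 1.06 RPM with the KO label and 0.69 ± 0.40 RPM in the controls. The adaptor Shc1 rose by 0.84 and was not called with quantile normalization (adjusted p = 0.0956). Stat3 and Socs3 also answer other cytokines.

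Glucocorticoid responsive genes other than the 2 above had 4 of 15 called higher and none lower, with a median of 0.51, and 1 higher against WT alone. Sdc4 rose by 0.90, to 122 ± 20.9 RPM in the libraries labelled KO, against 65.8 ± 17.6 RPM in the controls, and was called under every scaling and without any single library. Ddit4, a stress-induced inhibitor of mTORC1, rose by 0.80, Anxa1, an anti-inflammatory annexin, by 0.81, and Nfkbia, the inhibitor of NF-kappa-B, by 0.54. Each of these 3 lost its call with quantile normalization (adjusted p of 0.0815, 0.142 and 0.298), which left 1 of the 15 called. Anxa1 was also lost with median-of-ratios scaling (adjusted p = 0.0652), and Nfkbia with median-of-ratios scaling (0.118) and with limma-voom (0.185). Leaving out KO replicate 2 (adjusted p = 0.0582), KO replicate 4 (0.0553), Het replicate 2 (0.0566) or WT replicate 1 (0.0532) ended the call of Anxa1 too. Nfkbia was likewise lost without KO replicate 1 (0.0729), KO replicate 3 (0.0679), KO replicate 4 (0.0689) or Het replicate 4 (0.0606). Classic targets such as Per1 (log2 difference 0.22, adjusted p = 0.101), Sgk1 (0.67, adjusted p = 0.143) and Mt1 (-0.10, adjusted p = 0.574) were not called, and are named here after their values were seen. None of 4 genes that set glucocorticoid access was called. Of these, H6pd, which supplies cofactor to the enzyme that regenerates active glucocorticoid, had 23.4 ± 8.01 RPM with the KO label and 17.9 ± 4.28 RPM in the controls. Nr3c2, the mineralocorticoid receptor, had 6.66 ± 3.37 RPM with the KO label and 5.46 ± 1.35 RPM in the controls.

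Chaperones that hold steroid receptors ready for ligand had 4 of 13 called higher and 1 lower (median 0.17), and 2 higher and 1 lower against WT alone. Hsp90ab1 rose by 0.65, to 514 ± 45.5 RPM in the libraries labelled KO, against 327 ± 38.2 RPM in the controls. Hspa8 rose by 0.53, to 79.1 ± 9.81 RPM with the KO label, against 54.4 ± 6.17 RPM in the controls. Bag1, a nucleotide exchange factor of Hsp70, fell by 0.72, to 162 ± 31.4 RPM with the KO label, against 265 ± 19.7 RPM in the controls. Stub1, a ubiquitin ligase that overlaps Jmjd8, rose by 0.35 and was not called with median-of-ratios scaling (adjusted p = 0.124), under which the list had 2 higher and 1 lower.

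Nuclear receptor coregulators had 4 of 15 called higher and 1 lower (median 0.20), against 1 higher and 1 lower with median-of-ratios scaling and 2 higher against WT alone. Prmt1, an arginine methyltransferase, rose by 1.25, to 33.5 ± 3.26 RPM in the libraries labelled KO, against 13.9 ± 3.58 RPM in the controls. Ncor1 (0.32), Ep300 (0.62) and Sra1 (0.31) were called with RPM alone and not with any other scaling tried, and Ep300 was also lost without KO replicate 1 (adjusted p = 0.0531) or KO replicate 3 (0.0621). Ncor1 overlaps Ttc19 and Pigl, and Sra1 overlaps Apbb3.

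Estrogen-related genes gave 1 called higher of 6 tested. It was Sult1e1, the sulfotransferase that inactivates estrogens, which rose by 0.97, to 107 ± 28.0 RPM in the libraries labelled KO, against 54.1 ± 13.5 RPM in the controls. The median of the 6 was 0.05 and turned to -0.07 with median-of-ratios scaling and -0.11 with quantile normalization.

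Partners and targets of Nr5a1 had 12 of 25 called higher and none lower, with a median of 0.57. The steroid-making enzymes Cyp17a1 and Cyp11a1 rose by 0.94 and 1.0, and Cyp17a1 reached 2356 ± 356 RPM in the libraries labelled KO, against 1235 ± 205 RPM in the controls. Insl3, the Leydig cell hormone of testis descent, rose by 1.54, to 2889 ± 1093 RPM with the KO label, against 994 ± 340 RPM in the controls, and overlaps Jak3 in the table. Wt1, a Sertoli transcription factor that acts upstream of Nr5a1, rose by 0.87, to 53.2 ± 7.92 RPM with the KO label, against 28.7 ± 4.80 RPM in the controls. Of the 26 genes on this list, 10 are also Sertoli or Leydig markers, among them Cyp17a1, Cyp11a1, Insl3 and Wt1. Against WT alone 6 of the 25 were called.

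Other nuclear receptors had 7 of 32 tested called higher and none lower (median 0.25), with 5 higher and 1 lower under median-of-ratios scaling and 3 higher against WT alone. Vdr, the vitamin D receptor, rose by 1.58, to 15.5 ± 7.44 RPM in the libraries labelled KO, against 4.43 ± 2.02 RPM in the controls. The thyroid hormone receptors Thra and Thrb rose by 0.98 and 1.01, Thrb without a call under quantile normalization (adjusted p = 0.0732). Thra overlaps Nr1d1 in the table.

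Receptors of other peptide hormones had 6 of 19 called higher and none lower (median 0.35). With median-of-ratios scaling 3 were higher and 1 lower, and against WT alone 1 was higher. Lhcgr, the luteinizing hormone receptor of Leydig cells, rose by 0.75, to 73.5 ± 16.2 RPM in the libraries labelled KO, against 43.8 ± 13 RPM in the controls. Amhr2, the receptor of anti-Müllerian hormone, rose by 0.58, and Npr1, a natriuretic peptide receptor that overlaps Gm16048, by 0.79. Adipor1 rose by 0.35 and was not called with median-of-ratios scaling (adjusted p = 0.109).

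**Figure D5:**
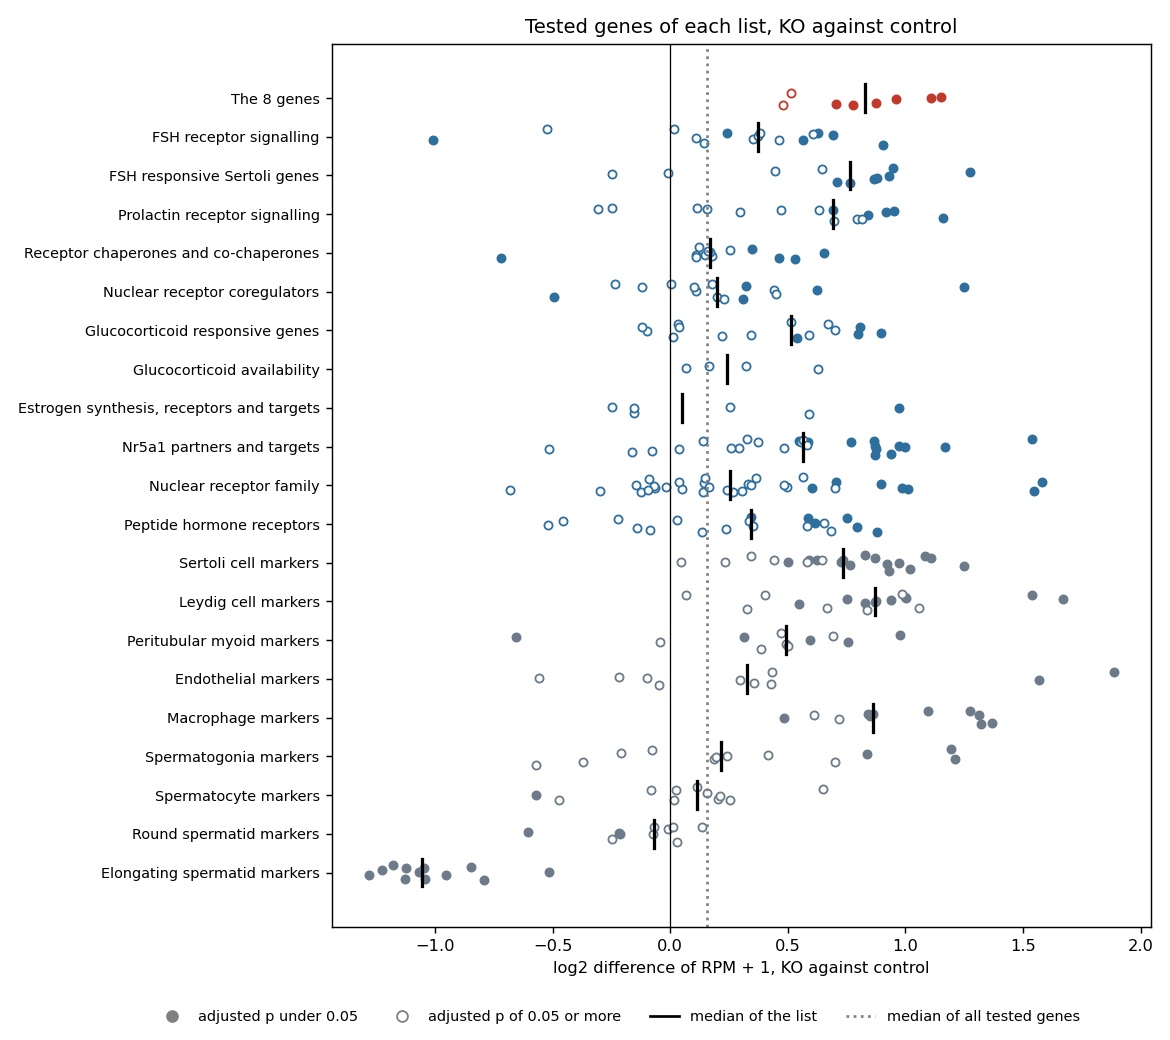
Log2 difference of RPM + 1 between 6 KO and 7 control libraries for every tested gene of the 8 genes, the pathway lists and the cell marker lists, filled where the adjusted p is under 0.05, with a black bar at each list's median, a solid line at 0 and a dotted line at the median of all genes tested (0.16). The 8 genes lie between 0.48 and 1.15, near the Sertoli, Leydig and macrophage markers, and all 12 elongating spermatid markers lie left of 0.

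The genes whose profile over the 13 libraries was nearest to each of the 8 were found by the root mean square (RMS) difference of centred log2(RPM + 1). The search covered 10510 genes that averaged 5 RPM or more, without those with predicted, Rik, clone-type or hyphenated names. For Nr5a1 the nearest were Fabp3, a fatty acid carrier, at an RMS of 0.13, and Zcchc17 at 0.14, where the RMS spread of Nr5a1 itself was 0.62. For Prlr the nearest was Cyp17a1 at 0.16, followed by Ifi30 at 0.17. For Fkbp5 the profile of Mavs lay at an RMS of 0.21. Nr3c1 was followed most closely by Hif1a at 0.13 and Csrp2bp at 0.15, Nr0b1 by Rap2b and Srd5a3, Tsc22d3 by Tbc1d8 and Etnk2, Esr1 by Npdc1 and Hiatl1, and Fshr by Atp10d and Sgpp1, all at an RMS of 0.13 to 0.22. None of the 8 was nearest to another of the 8. These are descriptions over 13 libraries that share the split of genotypes.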

How the data were processed

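The 8 genes, the gene lists and the rule for naming genes were chosen with earlier results of these data known. RNA was measured in 13 whole-testis libraries, and the deposited table holds log2 RPM of 25965 genes, made by the authors by scaling reads to one library size. Per the labels' protocols, libraries were made from about 2 ng of RNA by Smart-seq2, a full-length cDNA method, using 11 PCR cycles. Per the submitters' processing notes, reads were checked with FastQC 0.11.8 and trimmed with Trim Galore 0.6.6, and the build is mm10. The sources used here do not name the aligner, the counting tool or the strand setting.

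Reads were recovered from the deposited log2 values. At least 99.96% of the values of each library were whole reads within 0.01 read, and the lowest value of a library, that of 0.9 read, was set to 0. A limma 3.58.1 linear model with a mean-variance trend (R 4.3.3) was then fitted to log2(RPM + 1) over the 16235 genes that averaged 1 RPM or more, and all 8 genes passed this filter. P-values were two-sided and Benjamini-Hochberg adjusted over all genes tested, and 0.05 was the threshold. A fold change on this scale understates the change of low genes. Exact permutation tests (SciPy 1.17.1) were run over the libraries, and the adjustment of the marker-relative differences was over the 24 of them. Every library was treated as 1 mouse, since the design text counts mice, and no label tells of shared litters, cultures or days. The fits were tested on simulated data with as many genes raised as lowered, a setting that does not test the choice of scaling.

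For the level relative to a cell type, the mean log2(RPM + 1) of a marker list was subtracted from a gene's log2(RPM + 1) in the same library. The lists named below hold genes written from general knowledge. From each pathway list up to 4 genes past the threshold with the lowest adjusted p were named, and up to 2 by level where none passed. Some genes that meet these rules are not reported here. Exon lengths are the union of exons in GENCODE release M21. Promoters are the RefSeq windows of GRCm38.p6, which has the coordinates of mm10. No value was left out or imputed, and the reads themselves were not analysed here. Alternatives were another pseudocount, other filters, other scalings, limma-voom on the recovered reads, each library left out, the replicate number as a block, the title number as a covariate, number 2 libraries only, and WT or Het alone as the control.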

Additional observations from a re-analysis of the deposited data

Results flagged for a closer look

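Fshr in KO replicate 3, at 15.2 RPM, stood far above the other 5 libraries labelled KO, whose highest value was 7.71 RPM. Its gap to the nearest library was larger than Dixon's 95% limit for 6 values. In all, 24 groups of values were checked in this way, and chance alone would mark about 1 group in 20. The library had 93 Fshr reads.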

How the results depend on the processing

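Among the 8 genes, the count called higher in KO against control was 6, and the count of all genes called higher follows in brackets (2994). It was 3 with the number 2 libraries alone (870) and 2 with WT alone (982), and both of these settings hold fewer libraries. In either direction 3997, 1515 and 1525 genes of the table were called in these 3 settings. It was 4 with quantile normalization (1460), 6 or 7 without any single library (2378 to 3002), and 6 with the replicate number as a block (2845). The other alternatives gave 6 (1635 to 2901), except the filter at 5 RPM, which gave 7 (2776). For number 2 the count of 3 (1266) ranged from 2 to 5 without single libraries (506 to 1443), with 5 without WT replicate 3 (1443). Otherwise it was 2 to 3 (544 to 1383). For number 1 the count of 6 (2754) ranged from 5 to 7 (1458 to 2811). None of the 8 was called between the numbers or between Het and WT under any alternative. In either direction, 11 to 95 genes of the table were called between the numbers (29 as reported), and between Het and WT 0 except 3 without WT replicate 1. Also in either direction, 1041 genes were called for number 2 without KO replicate 5 and 1304 without KO replicate 6 (2020 as reported). For number 1, 2268 were called without KO replicate 3 (3686 as reported).

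Over 24 alternatives Nr5a1 and Prlr were called in all, Fkbp5 in 23, Nr0b1 in 22, Esr1 and Tsc22d3 in 21, Nr3c1 in 2 and Fshr in 0, all with positive differences. The replicate numbers do not pair the libraries by any label. Deviations of same-numbered libraries correlated at -0.08 to 0.13, and the block gave 3830 genes called.

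Small differences that were not called changed sign, and the cause was not tested. Fshr in number 2 was -0.0084 with quantile normalization. Nr3c1 between the numbers was -0.029 with quantile normalization, and without KO replicate 1 it was -0.0088. Nr3c1 in Het against WT was 0.057 with quantile normalization, 0.067 with limma-voom and -0.37 to 0.19 without single libraries. Tsc22d3 in Het against WT was -0.28 to 0.013 without single libraries. Relative to markers, the ranges without single libraries were -0.026 to 0.21 for Nr0b1 and -0.11 to 0.042 for Tsc22d3 less Sertoli markers, -0.16 to 0.18 for Esr1 and -0.19 to 0.096 for Nr0b1 less Leydig markers, and -0.14 to 0.21 for Fshr less peritubular markers. With the list median in place of the mean, Nr0b1 less Sertoli markers was -0.051, Fshr less peritubular markers -0.12 and Nr3c1 less peritubular markers -0.086. Reads of 28 to 93 per library limit Fshr most, and PCR copies carry no molecular identifiers.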

Other observations

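Marker lists of other cells and tissues gave the following counts in the libraries labelled KO against the controls. Endothelial markers had 2 of 10 called higher, spermatogonia markers 3 of 12 called higher, spermatocyte markers 1 of 11 called lower and round spermatid markers 3 of 10 called lower. Over all genes tested 18.4% were called higher and 6.18% lower. With median-of-ratios scaling endothelial markers had 2 higher and 1 lower, spermatogonia markers 3 higher and 1 lower, spermatocyte markers 3 lower and round spermatid markers 5 lower. Under that scaling 10.5% of all genes tested were called higher and 10.6% lower. Of the 10 epididymis markers 1 was tested and was not called, and the summed level of the 10 was 4.02 to 9.65 RPM in the libraries labelled KO and 4.43 to 7.85 RPM in the controls. Of the 5 adrenal cortex markers 3 were tested and 2 were called higher, with a summed level of 49.0 to 118 RPM in the libraries labelled KO, against 15.9 to 31.5 RPM in the controls. Cyp21a1 alone stood at 39.8 ± 21.4 RPM (SD) with the KO label and 10.3 ± 3.27 RPM in the controls. Cyp11b1 was at 0 in every control and at most 0.87 RPM in the libraries labelled KO. The source of these transcripts was not tested.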
